A study of Homo sapiens with 24 samples.

Results

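The interferon-stimulated genes and the sensors of foreign RNA were followed in HCT15 and HT115, established lines of human colorectal cancer cells, when the kinase MLK4 was switched on. The genes were taken from a list of 39, and each was represented by the brightest of its probe sets that carried exactly 1 gene symbol. This gave 38 of 19775 measured genes, since STAT2 was not analysed here. They comprised 22 antiviral effectors, 6 enzymes of ISG15 or ADP-ribose modification, 4 RNA sensors, 3 transcription factors and 3 proteins of antigen presentation. The sensor RIGI was listed under its older name DDX58.

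According to the labels, the MLK4 of both lines is inactivated by mutation. MLK4 was put back under the control of tetracycline, either in its wild-type (WT) form or with a mutation, Y330H in HCT15 cells and E314K in HT115 cells. For each of these 4 versions, 3 samples carry a Tet tag, meaning 24 h of tetracycline, and 3 carry none. This made 8 groups of 3 arrays, namely HCT15 WT, HCT15 Y330H, HT115 WT and HT115 E314K, each untagged and Tet. What the untagged samples received, whether a version is 1 clone or a pool, and whether the replicates were separate cultures are not given in the labels. The p-values therefore set a difference only against the scatter of these samples, and that scatter may be technical. The comparison of Tet with untagged arrays addressed what restoring the kinase changes in cells that lack it, and the mutant forms served as the control.

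Cells read foreign or misplaced RNA through sensors such as RIGI and IFIH1 in the cytosol and TLR3 in endosomes. The adaptors of these sensors activate factors of the IRF family, which drive interferon genes. Secreted interferon then acts through its receptors, JAK kinases and transcription factors, IRF9 among them, on a shared set of genes, whose products block viral entry, translation and replication, present antigen, or feed back on the pathway. In epithelial cells, tumour cells included, many of these genes keep a basal level without infection, and the RNA sensors are themselves interferon-stimulated.

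The DNA in front of these genes carries the sites that read the interferon signal, and it was examined first. RefSeq promoters (GRCh38.p14) from 250 bases before to 50 bases after the gene start were found for 32 of the 38 genes, in 42 entries. The core of the interferon-stimulated response element, searched on both strands as GAAA and GAAA separated by any 2 bases, was found in 28 of 42 entries (66.7%), against 3.57% of all 35116 promoters of the same length. The gamma-activated site, searched as TTC and GAA separated by any 3 bases, which reads the same on both strands, was found in 15 entries (35.7%), against 7.66% of all promoters. Where the sites lie next to each other, as in IFI27 and BST2, the matches overlap. By gene, 24 of 32 (75.00%) held the interferon-stimulated core and 14 (43.75%) the gamma-activated site. The genes with neither were HERC6, PSMB9, RIGI and XAF1. These matches are letters in a window and were not measured as binding sites.

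The 160 bases before the start are shown for 8 genes on which the results turn, with matches to the interferon-stimulated core in capitals. IFIT1, IFI6, OAS3 and IFITM1 carry the core and were called lower with WT MLK4 in HCT15 when replicate pairs were used. PSMB9 was called there too, without a match. The other called genes, not shown, had no core wholly before the start: HERC6 had no match and OAS1 a gamma-activated site alone. PSMB8 and TLR3 held the core only across the start, and no promoter was found for USP18. ISG15, HERC5 and BST2 differed strongly between the lines.
IFIT1 (chr10:89392463-89392622, + strand): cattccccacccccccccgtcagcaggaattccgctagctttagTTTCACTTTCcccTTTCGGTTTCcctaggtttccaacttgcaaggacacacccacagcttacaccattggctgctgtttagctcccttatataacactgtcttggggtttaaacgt
IFI6 (chr1:27672193-27672352, - strand): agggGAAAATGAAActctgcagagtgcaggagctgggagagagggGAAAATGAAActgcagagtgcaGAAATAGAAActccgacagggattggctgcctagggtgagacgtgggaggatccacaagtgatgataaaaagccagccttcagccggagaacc
OAS3 (chr12:112938314-112938473, + strand): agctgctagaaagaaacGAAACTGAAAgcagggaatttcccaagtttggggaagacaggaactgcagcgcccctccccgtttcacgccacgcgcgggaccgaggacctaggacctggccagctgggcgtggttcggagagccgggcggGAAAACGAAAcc
IFITM1 (chr11:313880-314039, + strand): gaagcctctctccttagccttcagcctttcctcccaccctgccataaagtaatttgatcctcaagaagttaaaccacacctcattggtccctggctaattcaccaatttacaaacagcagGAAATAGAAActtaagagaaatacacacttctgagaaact
PSMB9 (chr6:32854032-32854191, + strand): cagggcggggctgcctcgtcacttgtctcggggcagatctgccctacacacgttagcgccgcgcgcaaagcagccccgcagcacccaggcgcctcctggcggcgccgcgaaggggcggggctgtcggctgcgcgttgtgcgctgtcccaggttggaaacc
ISG15 (chr1:1013337-1013496, + strand): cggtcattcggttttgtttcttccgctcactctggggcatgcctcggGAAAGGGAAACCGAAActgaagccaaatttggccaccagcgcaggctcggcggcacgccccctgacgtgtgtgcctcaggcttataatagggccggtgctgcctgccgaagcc
HERC5 (chr4:88456959-88457118, + strand): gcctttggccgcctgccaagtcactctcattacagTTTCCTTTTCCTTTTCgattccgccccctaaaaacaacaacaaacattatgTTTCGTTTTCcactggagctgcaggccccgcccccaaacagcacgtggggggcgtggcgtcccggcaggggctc
BST2 (chr19:17405631-17405790, - strand): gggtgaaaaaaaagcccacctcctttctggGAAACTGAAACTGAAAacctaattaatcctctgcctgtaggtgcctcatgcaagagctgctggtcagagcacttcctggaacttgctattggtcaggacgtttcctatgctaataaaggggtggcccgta
IFI6 holds 3 copies of the core in this stretch, at positions -156 to -147, -115 to -106 and -93 to -84 from the start. In ISG15, HERC5 and BST2 neighbouring cores share bases and form a longer run. The TLR3 promoter holds its only core across the start itself, so it is not in the stretches shown.

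The deposited values are log2 signals from Affymetrix U133 Plus 2.0 arrays. The median signal of an array was 5.55 to 5.61 in HT115 WT and 6.38 to 6.48 elsewhere, so levels of HT115 WT were compared with no other group. On the 18 arrays of the other versions the epithelial markers EPCAM and KRT18 were at 12.52 to 12.78 and 13.05 to 13.59. Other epithelial markers were low in HCT15, with KRT20 at 3.95 to 6.22, CDX1 at 5.62 to 6.49 and LGALS4 at 4.49 to 6.4. In HT115 E314K these were at 9.14 or above. Of 7 leukocyte markers PTPRC and CD3E were at or below 4.90 and 3.15. The monocyte marker CD14 was at 7.19 to 8.49 in HCT15 and 4.98 to 6.02 in HT115 E314K, and LYZ was at 13.62 to 13.82 in HT115 E314K. The MAP3K21 (MLK4) probe set gave 10.64 to 10.9 in untagged and 10.36 to 10.78 in Tet arrays of HCT15 WT, and the Tet and untagged arrays overlapped in every version. The sources used here do not say whether this probe set reads the engineered copy, so it does not check the labels. RNA integrity was read from ACTB as the 3′ signal minus the 5′ signal. It was 1.18 and 0.931 in the HCT15 WT arrays numbered 1, untagged and Tet, and 0.345 to 0.528 in the other 4 arrays of that version.

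With WT MLK4 in HCT15, the sensor TLR3 fell in the Tet arrays, and when replicate pairs were used 5 of 22 antiviral effectors, 2 of 6 modifiers and 2 of 3 antigen presentation genes were called lower too. TLR3 had the largest difference, -1.23, followed by IFIT1 with -1.07, PSMB9 with -0.77, OAS1 with -0.69, IFI6 with -0.66 and IFITM1 with -0.64. Of the 38 genes 33 had a negative difference, with a median of -0.24, against 11486 of all 19775 genes and a median of -0.03. The replicate numbers of the labels paired the HCT15 arrays, and the count of called genes depended on whether the pairs were used. Without them, limma called 1 of the 38 genes (TLR3, lower) at an adjusted p under 0.05, where 0.698% of all genes were called and 0.086% were called lower. With the pair as a block it called 10 genes lower and none higher, where 1.72% of all genes were called lower and 3.14% higher. At an unadjusted p under 0.05 and without the block, 12 genes were lower and 0 higher, where 4.46% and 4.91% of all genes were. In bulk RNA, fewer cells with a transcript and less of it per cell cannot be told apart.

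Markers of the colon epithelium differed between the same arrays in both directions. Of 10 measured markers 6 had a negative difference, where 58.1% of all genes had. Without the block 2 were called higher (KRT19 and KRT20), where 0.612% of all genes were. With it these 2 were called higher and 2 lower (CDX2 and VIL1), where 3.14% and 1.72% of all genes were. KRT20, a keratin of differentiated enterocytes, was at 4.27, 4.14 and 4.46 in untagged and 6.2, 6.22 and 4.95 in Tet arrays of HCT15 WT, with the smallest step in pair 3. KRT19 was at 12.7, 13.02 and 13.08 untagged and 13.67, 13.79 and 13.45 Tet. CDX2, a transcription factor of the intestinal epithelium, was lower in every pair, at 8.75, 8.99 and 9.15 untagged and 8.34, 8.37 and 8.77 Tet. So was VIL1, the villin of the brush border, at 5.98, 6.4 and 9 untagged and 5.43, 5.47 and 8.32 Tet. The summed level of the 10 epithelial markers was 15.0 to 15.3 untagged and 15.3 to 15.4 Tet, and that of 7 leukocyte markers 8.64 to 8.91 and 8.70 to 9.06. The part of these markers in the differences of the interferon-stimulated genes was not tested.

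The pairs did not contribute equally. The median difference of the 38 genes was -0.30 in pair 1, -0.29 in pair 2 and -0.18 in pair 3, while the medians of all genes were 0.01, -0.02 and -0.03. In all 3 pairs 22 of 38 genes were lower, where 21.3% of all genes were, and 3 were higher, where 18.6% were. The Tet and untagged arrays did not overlap for 15 genes that were lower (7.46% of all genes) and for 1 that was higher (6.41%), IFI27. With the block and without pair 1, 2 genes were called lower, IFITM1 and PSMB9, where 0.571% of all genes were. The same 2 were called without pair 2, where 0.298% of all genes were called lower. Without pair 3, 14 were called lower and 1 higher, where 1.99% and 2.56% of all genes were.

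**Figure D1:**
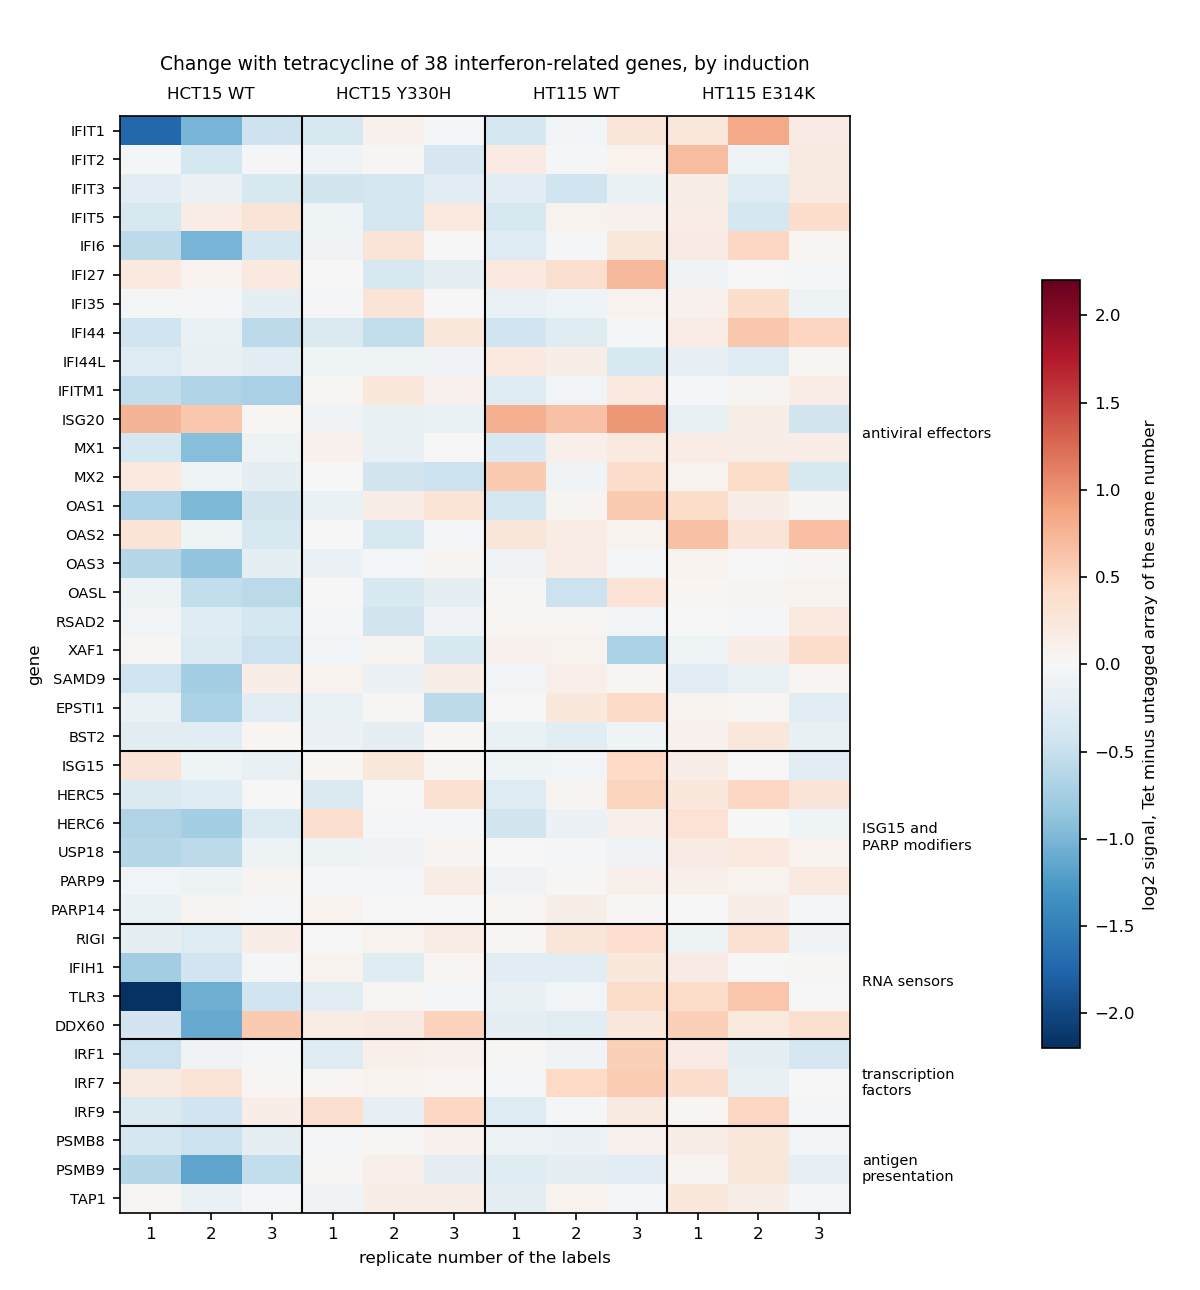
Log2 signal of the Tet array minus that of the untagged array of the same number, for 38 genes grouped by role (vertical) and the 3 numbers of each engineered version (horizontal); blue is lower and red higher with tetracycline, on a scale from -2.2 to 2.2. The HCT15 WT columns 1 and 2 are blue for most genes, with TLR3 and IFIT1 darkest in column 1 and PSMB9 and DDX60 in column 2, and the columns of the other versions show smaller differences of both signs.

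Among the RNA sensors, TLR3 detects double-stranded RNA in endosomes. Its signal in HCT15 WT was 8.17, 7.54 and 7.77 in the untagged arrays numbered 1, 2 and 3, and 5.99, 6.47 and 7.33 in the Tet arrays of the same numbers. Every Tet array lay below every untagged array, and the fall was largest in pair 1 and smallest in pair 3. The difference was -1.23 (SE 0.27, adjusted p = 0.0321, and 0.0117 with the block), a level 2.35-fold lower. It was -0.76 (adjusted p = 0.422) without the pair numbered 1, whose ACTB values stand apart, and the call was lost without any single HCT15 WT array (adjusted p from 0.0518 to 0.229) except the Tet array numbered 3 (0.00116). A second TLR3 probe set gave -1.38 (adjusted p = 0.0193 over all probe sets) and the dimmest -0.34 (0.698).

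IFIH1, the cytosolic sensor of long double-stranded RNA, was at 8.97, 8.49 and 8.38 in untagged and 8.2, 8.07 and 8.34 in Tet arrays. These groups did not overlap, but the difference of -0.41 (SE 0.14) did not pass, with an adjusted p of 0.264 and of 0.110 with the block. RIGI, which senses short RNA with a triphosphate end, gave 9.32, 9.09 and 8.94 untagged and 9.1, 8.8 and 9.07 Tet, and its difference was -0.13 (SE 0.13). DDX60, a helicase linked to RIGI signalling, was at 5.29, 5.17 and 4.6 untagged and 4.87, 4.06 and 5.17 Tet. Its difference changed sign between pairs and averaged -0.32 (SE 0.24). The median difference of the 4 sensors was -0.60 in pair 1 and -0.74 in pair 2 but 0.05 in pair 3.

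**Figure D2:**
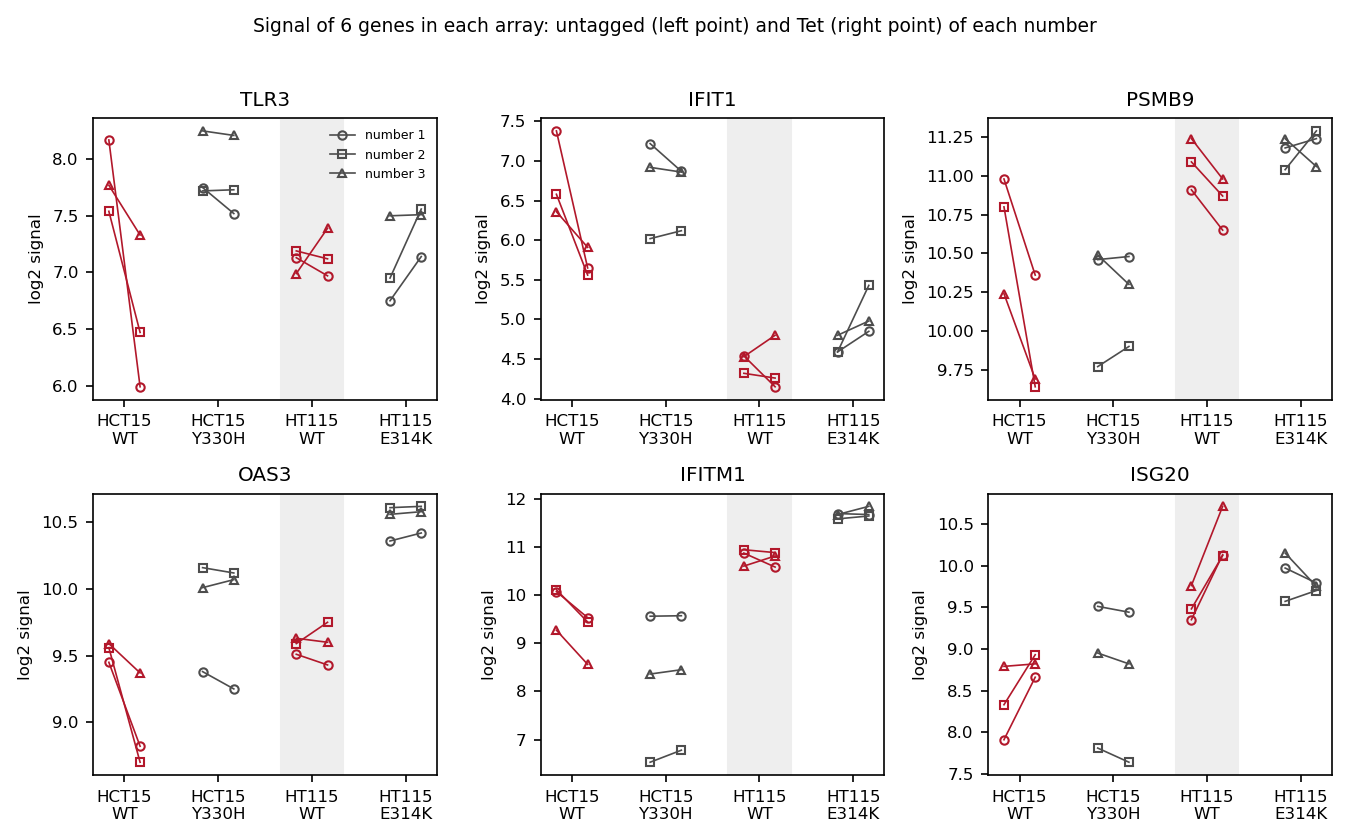
Log2 signal of TLR3, IFIT1, PSMB9, OAS3, IFITM1 and ISG20 in each of 24 arrays, with lines joining the untagged (left) and Tet (right) array of a number in each version; red marks WT, grey the mutant forms, and the shaded HT115 WT arrays are on a lower scale. In HCT15 WT the lines of the first 5 genes slope down in every pair, from 8.17 to 5.99 for TLR3 in pair 1, and IFITM1 in HCT15 Y330H spans about 3 units between numbers with level lines.

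Of the 22 antiviral effectors, 19 had a negative difference in HCT15 WT and 5 were called lower with the block. IFIT1, which binds viral RNA lacking the host cap mark, was at 7.38, 6.58 and 6.36 in untagged and 5.65, 5.56 and 5.91 in Tet arrays. The groups did not overlap, and the difference was -1.07 (SE 0.28, adjusted p = 0.0889, and 0.0107 with the block), a level 2.10-fold lower. IFI6, a membrane protein that protects cells from flaviviruses, gave 9.63, 9.71 and 9.6 untagged and 9.05, 8.69 and 9.21 Tet. Every Tet array lay below every untagged array, a difference of -0.66 (SE 0.28, adjusted p = 0.433, and 0.0135 with the block).

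IFITM1, which hinders the fusion of viruses with cell membranes, was at 10.07, 10.11 and 9.27 untagged and 9.53, 9.44 and 8.56 Tet. The groups overlapped because both arrays numbered 3 were low, while the pair differences were alike. The mean difference of -0.64 had an SE of 0.56 and an adjusted p of 0.800 without the block, and an adjusted p of 0.00227 with it. The oligoadenylate synthetases OAS1 and OAS3 make the messenger that activates RNase L. OAS1 was at 6.1, 6.21 and 6.76 untagged and 5.42, 5.23 and 6.35 Tet, a difference of -0.69 (SE 0.29, adjusted p = 0.451, and 0.0282 with the block). OAS3 was at 9.45, 9.56 and 9.59 untagged and 8.82, 8.7 and 9.37 Tet, a difference of -0.57 (SE 0.21, adjusted p = 0.306, and 0.00836 with the block). Both were lower in every pair, with the smallest step in pair 3.

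MX1, a GTPase that traps viral nucleocapsids, was at 8.04, 8.25 and 7.93 untagged and 7.67, 7.31 and 7.82 Tet. Its arrays did not overlap, and the difference of -0.48 (SE 0.14) did not pass without the block (adjusted p = 0.178) or with it (0.0750). ISG20, an exonuclease for RNA, ran the other way, at 7.91, 8.33 and 8.79 untagged and 8.66, 8.93 and 8.82 Tet, a difference of 0.46 (SE 0.37, adjusted p = 0.771, and 0.0661 with the block). It was higher in all 3 pairs, by 0.75, 0.60 and 0.04. The remaining 15 effectors had differences from -0.41 for OASL to 0.16 for IFI27, and none of them passed with or without the block.

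The brightest probe set did not always show the largest difference. IFIT2 and IFIT3, which act with IFIT1, had differences of -0.15 and -0.25 by their brightest probe sets, and -0.75 and -0.87 by their second (adjusted p = 0.370 and 0.307 over all probe sets). The probe sets of a gene had the same sign for 14 of 20 genes with more than 1.

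Among the 6 modifiers, the ISG15 ligase relative HERC6 and the ISG15 protease USP18, which also brakes interferon receptor signalling, were called lower with the block. HERC6 was at 10.09, 9.71 and 9.75 untagged and 9.42, 8.97 and 9.45 Tet, a difference of -0.57 (SE 0.19, adjusted p = 0.229, and 0.0228 with the block). USP18 was at 9.15, 8.9 and 8.72 untagged and 8.52, 8.33 and 8.61 Tet, a difference of -0.44 (SE 0.17, adjusted p = 0.344, and 0.0197 with the block). The arrays of neither gene overlapped between the groups. ISG15, the ubiquitin-like protein that USP18 removes, had a difference of 0.01 (SE 0.22), and HERC5, its main ligase, of -0.20 (SE 0.27). PARP9 and PARP14, which act on ADP-ribose, both had -0.04.

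No transcription factor passed in HCT15 WT with or without the block. IRF7, the amplifier of type I interferon, was at 8.95, 9.07 and 8.97 untagged and 9.13, 9.37 and 9.01 Tet, a difference of 0.18 (SE 0.13, adjusted p = 0.743). IRF1, which drives antigen presentation genes, was at 7.86, 8 and 7.75 untagged and 7.38, 7.93 and 7.72 Tet, a difference of -0.19 (SE 0.15, adjusted p = 0.773). IRF9, a DNA-binding factor of the interferon response, had -0.20 (SE 0.17). The groups of IRF7 and IRF1 overlapped.

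The immunoproteasome subunits PSMB8 and PSMB9, which reshape the peptides loaded on MHC class I, were called lower with the block. PSMB9 was at 10.98, 10.8 and 10.24 untagged and 10.36, 9.64 and 9.69 Tet, a difference of -0.77 (SE 0.21, adjusted p = 0.121, and 0.00295 with the block). Each pair was lower, although the untagged array numbered 3 lay below the Tet array numbered 1. PSMB8 was at 9.44, 9.41 and 9.23 untagged and 9.05, 8.93 and 9.04 Tet, a difference of -0.35 (SE 0.16, adjusted p = 0.496, and 0.0338 with the block). TAP1, which carries peptides to MHC class I and whose gene neighbours PSMB9, had -0.06 (SE 0.10).

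The mutant form gave no such calls in HCT15. With Y330H, limma called 0 of the 38 genes with or without the block, and 0 (0%) of all genes. At an unadjusted p under 0.05, 1 gene was lower and 0 higher, where 2.64% and 0.465% of all genes were, namely IFIT3 with -0.34. The 38 genes had 16 positive and 22 negative differences, where 57.4% of all genes had negative ones, and a median of -0.03. TLR3 was at 7.75, 7.72 and 8.25 untagged and 7.52, 7.73 and 8.21 Tet, and IFIT1 at 7.22, 6.02 and 6.92 untagged and 6.87, 6.12 and 6.86 Tet. The Tet and untagged arrays overlapped for all 38 genes, where 1.25% of all genes were higher and 6.02% lower without overlap. PSMB9 had a difference of -0.01, OAS3 of -0.04, IFI6 of 0.06, OAS1 of 0.10 and IFITM1 of 0.12.

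The difference between the inductions was tested directly, since a call in one and none in the other does not show that they differ. Between WT and Y330H in HCT15, 0 of the 38 genes passed without the block, where 0.0607% of all genes were called, all of them higher. At an unadjusted p under 0.05, 5 genes were lower with WT than with Y330H and 0 higher, where 1.38% and 2.4% of all genes were. These were TLR3 at -1.15 (95% interval -1.93 to -0.36), IFIT1 at -0.96 (-1.78 to -0.15), PSMB9 at -0.76 (-1.39 to -0.13), HERC6 at -0.66 (-1.22 to -0.11) and MX1 at -0.46 (-0.89 to -0.03). With the block IFITM1 passed, at -0.76 (adjusted p = 0.0211), and no other member did, where 0.956% of all genes were called, 0.673% higher and 0.283% lower. The adjusted p with the block was 0.0588 for PSMB9 and 0.189 for TLR3.

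In HT115 no member was called without the block. With WT MLK4, 0 of the 38 genes were called, where 0.147% of all genes were, 0.126% higher and 0.0202% lower. Of the differences 19 were positive and 19 negative with a median of 0.00, where 55.5% of all genes had negative ones. At an unadjusted p under 0.05, 2 genes were higher and 0 lower, where 2.21% and 5.56% of all genes were. ISG20 was at 9.35, 9.48 and 9.76 untagged and 10.13, 10.12 and 10.71 Tet, without overlap, a difference of 0.79 (SE 0.37, adjusted p = 0.622). IRF7 was at 7.98, 7.57 and 7.73 untagged and 7.94, 8.01 and 8.29 Tet, a difference of 0.32 (SE 0.13, adjusted p = 0.530). ISG20 was thus the member with the largest positive difference with WT MLK4 in either line, and in neither did it pass without the block. In HT115, where the numbers were not taken as pairs, the block called it (adjusted p = 0.0140).

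For TLR3 in HT115 WT the signal was 7.13, 7.19 and 6.99 untagged and 6.97, 7.12 and 7.39 Tet, a difference of 0.06 (SE 0.27, 95% interval -0.50 to 0.61). IFIT1 was at 4.54, 4.32 and 4.53 untagged and 4.15, 4.26 and 4.8 Tet, a difference of -0.06 (SE 0.28). Both sets of arrays overlapped. The difference between the WT inductions of HCT15 and HT115 was called for 0 of the 38 genes, where 0.0253% of all genes were, 0.0202% higher and 0.00506% lower. It was negative for 35 of 38 genes, where it was for 47.9% of all genes, with a median of -0.29. At an unadjusted p under 0.05 it was lower for 4 and higher for 0, where 1.55% and 1.89% of all genes were. The 4 were TLR3 at -1.29 (95% interval -2.08 to -0.51), IFIT1 at -1.01 (-1.83 to -0.19), EPSTI1 at -0.57 (-1.12 to -0.01) and MX1 at -0.47 (-0.90 to -0.05).

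With E314K in HT115 small positive differences prevailed. Of the 38 genes 31 had a positive difference, with a median of 0.07, against 10739 of all 19775 genes and a median of 0.01. None of the 38 was called, as were 0 (0%) of all genes. In all 3 numbers 14 of 38 genes were higher, where 12.6% of all genes were. At an unadjusted p under 0.05, 2 were higher and 0 lower, where 0.668% and 0.915% of all genes were. OAS2, a synthetase of the OAS family, was at 4.56, 4.62 and 4.77 untagged and 5.2, 4.9 and 5.43 Tet, without overlap, a difference of 0.53 (SE 0.14, adjusted p = 1.00). IFIT2 had a difference of 0.26 (SE 0.13). The difference between the WT and E314K inductions was called for 0 of the 38 genes, where 0.0152% of all genes were, and at an unadjusted p under 0.05 for 0, where 1.27% of all genes were higher and 1.58% lower.

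More members differed between the lines than in any induction. In untagged arrays, the mean of HCT15 WT and HCT15 Y330H was set against HT115 E314K, and 26 of the 38 genes were called, 15 higher and 11 lower in HCT15, where 37.6% of all genes were called, 21.2% higher and 16.4% lower. Higher in HCT15 were 5 of 6 modifiers, 3 of 4 RNA sensors, 2 of 3 transcription factors and 5 of 22 effectors. Lower there were 8 effectors, among them BST2, IFI27, IFITM1, OAS1 and OAS3, 2 of 3 antigen presentation genes and 1 sensor. HT115 entered by this version alone, so its line and its version cannot be told apart. The leukocyte marker LYZ, which epithelial cells can also express, was at 13.62 to 13.82 in HT115 E314K and 4.18 to 4.77 in HCT15, with the other 6 measured leukocyte markers at or below 8.49. The part of this in the differences was not tested.

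**Figure D3:**
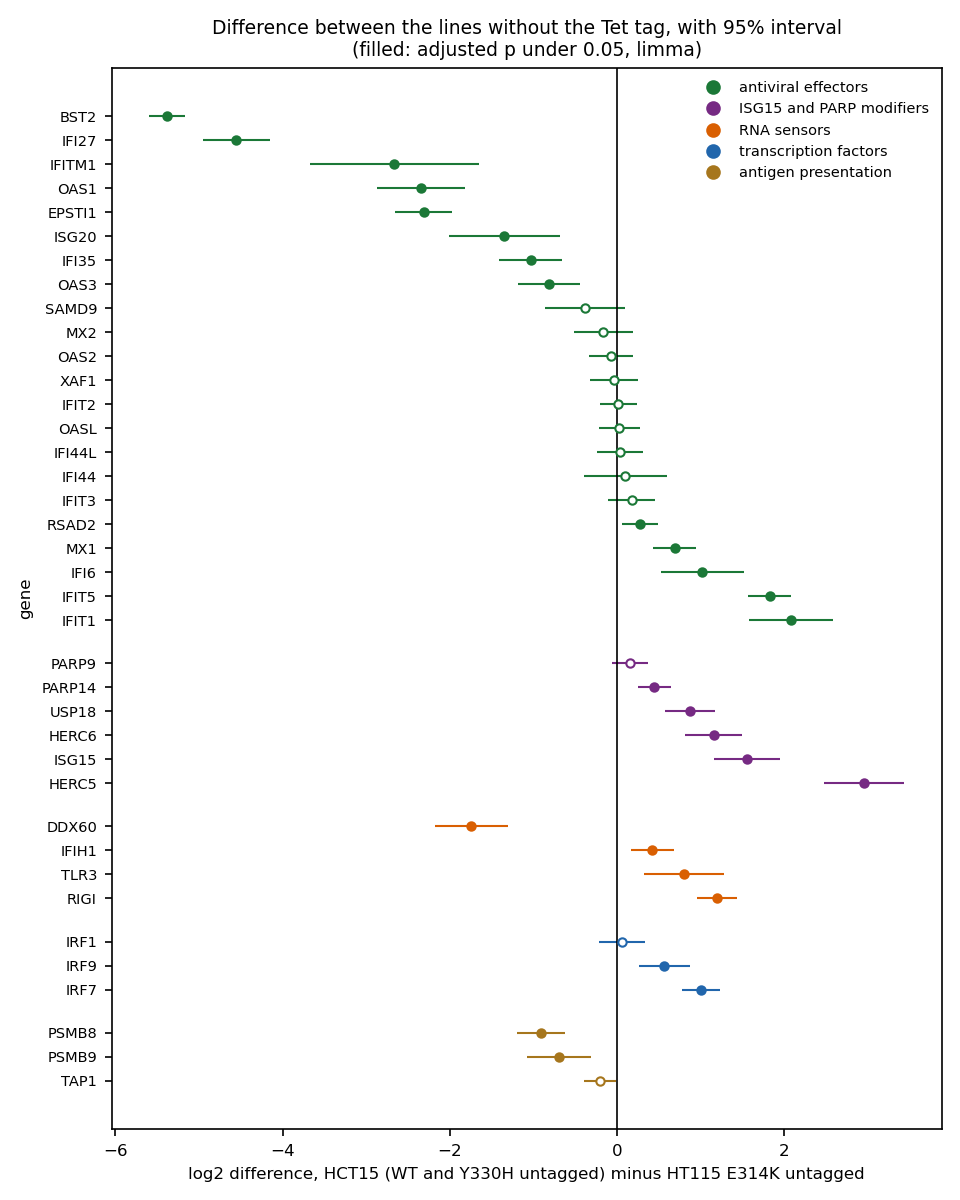
Log2 difference between untagged HCT15 (mean of WT and Y330H) and untagged HT115 E314K with its 95% interval, for 38 genes ordered within 5 roles given by colour; filled points have an adjusted p under 0.05 in limma. The differences run from -5.38 for BST2 to 2.96 for HERC5, all 6 modifiers lie above 0, and DDX60 alone of the 4 sensors lies below.

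The largest differences were those of BST2 and IFI27, followed by HERC5 and IFITM1. BST2, or tetherin, which holds budding viruses on the cell surface, was at 6.16, 6.31 and 6.22 in HCT15 WT, 6.24, 6.01 and 6.04 in HCT15 Y330H and 11.38, 11.59 and 11.67 in HT115 E314K. It was 41.7-fold lower in HCT15, a difference of -5.38 (SE 0.10, adjusted p = 1.62e-20). IFI27, a small hydrophobic protein of mitochondrial and nuclear membranes, was at 7.32, 7.48 and 7.3, at 7.42, 6.52 and 6.74, and at 11.75, 11.56 and 11.74 in the same order of groups. It was 23.5-fold lower in HCT15, a difference of -4.55 (SE 0.19, adjusted p = 1.90e-14). IFITM1 was at 11.69, 11.58 and 11.67 in HT115 E314K, above every HCT15 array, a difference of -2.66 (SE 0.49, adjusted p = 0.000134).

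The enzymes and other effectors that were lower in HCT15 followed with smaller differences. OAS1 was at 6.1, 6.21 and 6.76 in HCT15 WT, 7.37, 6.67 and 7.41 in HCT15 Y330H and 8.65, 9.17 and 9.48 in HT115 E314K, a difference of -2.35 (SE 0.25). OAS3 had -0.82 (SE 0.18), with 9.38, 10.16 and 10.01 in HCT15 Y330H and 10.36, 10.61 and 10.56 in HT115 E314K. EPSTI1, a gene of epithelial and stromal interaction, was at 4.54, 4.78 and 4.77, at 4.67, 4.61 and 5.08, and at 7.02, 6.81 and 7.34, a difference of -2.31 (SE 0.16). ISG20 had -1.35 (SE 0.32), with 9.51, 7.81 and 8.95 in HCT15 Y330H and 9.97, 9.57 and 10.15 in HT115 E314K. IFI35, a partner of NMI in inflammatory signalling, had -1.03 (SE 0.18), with 8.21, 8.36 and 8.45, with 9.19, 8.14 and 9.1, and with 9.72, 9.4 and 9.71. The HT115 E314K arrays of all 5 genes lay above every HCT15 array, as the HCT15 WT arrays given above for OAS3 and ISG20 also show.

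Effectors higher in HCT15 included members of the IFIT family. IFIT5, which binds RNA with a triphosphate end, was at 9.52, 9.26 and 9.11 in HCT15 WT, 9.13, 9.2 and 8.91 in HCT15 Y330H and 7.29, 7.51 and 7.28 in HT115 E314K, a difference of 1.83 (SE 0.12, adjusted p = 8.60e-11). IFIT1 was at 4.59, 4.59 and 4.8 in HT115 E314K, below every HCT15 array, a difference of 2.09 (SE 0.24, adjusted p = 3.45e-07). IFIT2 and IFIT3 differed by 0.02 and 0.17 and did not pass. IFI6 was at 8.3, 8.75 and 9.28 in HT115 E314K and 10.22, 9.3 and 10.33 in HCT15 Y330H, a difference of 1.02 (SE 0.24). MX1 was at 7.25, 7.16 and 7.03 in HT115 E314K and 7.57, 7.5 and 7.7 in HCT15 Y330H, a difference of 0.69 (SE 0.13). RSAD2, or viperin, was at 5.12, 5.37 and 5.41, at 5.21, 5.48 and 5.29, and at 5.19, 5.14 and 4.76, a difference of 0.28 (SE 0.10, adjusted p = 0.0365) with overlapping arrays. Its call was lost when the HCT15 WT arrays numbered 2 or 3, the HCT15 Y330H array numbered 2 or the HT115 E314K array numbered 3 was left out, with adjusted p from 0.0694 to 0.344.

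The modifiers lay on the HCT15 side. HERC5 was at 8.61, 7.96 and 7.88 in HCT15 WT, 7.68, 8.52 and 8.15 in HCT15 Y330H and 5.3, 5.05 and 5.18 in HT115 E314K, 7.77-fold higher in HCT15 (difference 2.96, SE 0.23, adjusted p = 7.66e-10). ISG15 was at 10.27, 11.38 and 11.21, at 11.08, 11.1 and 11.28, and at 9.35, 9.37 and 9.77, a difference of 1.55 (SE 0.19). The arrays of the lines did not overlap for either gene. HERC6, at 9.18, 10.01 and 9.96 in HCT15 Y330H and 8.46, 8.75 and 8.66 in HT115 E314K, had 1.16 (SE 0.16). USP18, at 8.24, 8.63 and 8.5 and at 7.48, 7.87 and 8.1, had 0.87 (SE 0.14). PARP14, at 10.11, 10.18 and 10.07, at 10.11, 10.16 and 10.43, and at 9.71, 9.75 and 9.73, had 0.45 (SE 0.10, adjusted p = 0.000743), but the mean of its probe sets gave 0.09 (0.494). PARP9 had 0.16 and did not pass.

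The sensors divided. RIGI was at 9.32, 9.09 and 8.94 in HCT15 WT, 9.08, 8.72 and 8.75 in HCT15 Y330H and 7.85, 7.71 and 7.8 in HT115 E314K, a difference of 1.20 (SE 0.12, adjusted p = 2.57e-08). Its other probe sets gave 0.53 and -0.08. IFIH1, at 8.4, 8.59 and 8.55 in HCT15 Y330H and 8.05, 8.05 and 8.32 in HT115 E314K, had 0.42 (SE 0.12). TLR3, at 6.75, 6.95 and 7.5 in HT115 E314K, had 0.80 (SE 0.23, adjusted p = 0.00818), and 0.64 (0.0689) without the HT115 E314K array numbered 1. DDX60 lay on the other side, at 5.35, 5.26 and 5.76 in HCT15 Y330H and 7.01, 7 and 6.95 in HT115 E314K, a difference of -1.75 (SE 0.21, adjusted p = 6.03e-07).

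Of the transcription factors, IRF7 was at 9.16, 9.23 and 9.11 in HCT15 Y330H and 8.02, 8.1 and 8.11 in HT115 E314K, a difference of 1.01 (SE 0.11). IRF9, at 8.53, 8.52 and 8.14, at 8.45, 8.37 and 7.89, and at 7.85, 7.49 and 7.92, had 0.56 (SE 0.15, adjusted p = 0.00384), and IRF1 had 0.06 and did not pass. The immunoproteasome lay on the HT115 side. PSMB8 was at 9.56, 8.8 and 9.18 in HCT15 Y330H and 10.08, 10.15 and 10.31 in HT115 E314K, a difference of -0.91 (SE 0.14). PSMB9, at 10.46, 9.77 and 10.49 and at 11.18, 11.04 and 11.24, had -0.70 (SE 0.19), and TAP1 had -0.21 and did not pass. The 12 genes that passed in neither this comparison nor the HCT15 WT induction were IFIT2, IFIT3, IFI44, IFI44L, MX2, OAS2, OASL, XAF1, SAMD9, PARP9, IRF1 and TAP1.

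Between the HCT15 versions before induction, 0 of the 38 genes were called, where 5.97% of all genes were, 3.38% higher and 2.59% lower, and 6 were higher and 2 lower in WT at an unadjusted p under 0.05, where 10.6% and 7.88% of all genes were. MX1 was closest, with 0.49 (SE 0.14, adjusted p = 0.0502), and its WT arrays all lay above the Y330H arrays. OAS1 had the largest negative difference, -0.80 (SE 0.29, adjusted p = 0.124), with overlapping arrays. It was called with a block for the number that was shared by all groups and was not the pair block (adjusted p = 0.0242). With that block 3.85% of all genes were called higher and 3.2% lower. With array weights 8 members were called higher and 2 lower, where 11.3% and 7.52% of all genes were. IFITM1 had 1.67 (SE 0.56, adjusted p = 0.0868), with a wide spread in Y330H. It was at 9.56, 6.53 and 8.36 in the untagged and 9.57, 6.78 and 8.45 in the Tet arrays numbered 1, 2 and 3 of that version. The numbers thus differed by 3.03 and 2.80 at most, while Tet and untagged arrays of a number lay within 0.24 of each other.

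This spread reached other members. ISG20 was at 9.51, 7.81 and 8.95 untagged and 9.44, 7.64 and 8.82 Tet in HCT15 Y330H. The arrays numbered 2 were lowest in both groups for 16 of 38 genes, among them IFIT1, IFI6, IFI27, IFI35, OAS1, PSMB8 and PSMB9, where 19.6% of all genes were lowest there. More than 1 unit separated arrays of HCT15 Y330H for 5 of 38 genes untagged and 6 Tet (3.64% and 4.02% of all genes). In HCT15 WT it did so for 2 and 3 (2.58% and 2.16%). In every HT115 group it did so for 0, where 0.485% to 1.54% of all genes were so separated. Of the epithelial markers, VIL1, CDX2 and LGALS4 were also lowest in number 2 of both groups, with VIL1 at 10.2, 8.47 and 9.68 untagged and 10.04, 8.55 and 9.87 Tet. CDX1 was highest there, at 5.96, 6.49 and 6.36 untagged and 5.62, 6.45 and 6.08 Tet. EPCAM, KRT8, KRT18, KRT19 and KRT20 were not lowest in number 2 of both groups, and CDH1 stayed at 12.65 to 12.87. In the untagged HCT15 WT arrays, given above, VIL1 was highest where IFITM1 was lowest, in number 3. The part of this in the results was not tested.

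Other genes of the pathway from wider lists were read against the same induction of WT MLK4 in HCT15. The counts stand beside the shares of all genes given above, 0.612% called higher and 0.086% lower without the block, and 3.14% and 1.72% with it. None of 9 measured interferon ligands passed with or without the block, and IFNG, which had the smallest p, had -0.32 (SE 0.13, adjusted p = 0.404). Of 11 receptors and kinases IFNGR2, the second chain of the interferon gamma receptor, passed with the block alone at 0.47 (adjusted p = 0.00307). Of 15 sensing adaptors and kinases 1 was called higher and 0 lower without the block, and 2 higher and 1 lower with it. TICAM1, or TRIF, the adaptor of TLR3, was at 7.63, 8.03 and 7.8 untagged and 8.41, 8.84 and 8.39 Tet, a difference of 0.73 (SE 0.14, adjusted p = 0.0138). It thus rose in the arrays in which its receptor TLR3 fell.

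With the block MAVS, the adaptor of RIGI and IFIH1, was also called, at 0.40 (SE 0.13, adjusted p = 0.00545 with the block), and STING1, the adaptor of DNA sensing, at -0.66 (SE 0.26, 0.00857). STING1 was at 8.2, 7.98 and 7.94 untagged and 7.4, 7.03 and 7.7 Tet, without overlap. Of 15 further genes of antigen presentation, ERAP2, which trims peptides for MHC class I, was called lower without the block. It was at 8.24, 8.15 and 8.16 untagged and 7.14, 6.69 and 7.77 Tet, a difference of -0.98 (SE 0.19, adjusted p = 0.0159). With the block PSME1, CALR and TAPBPL were called lower too, at -0.37, -0.34 and -0.40, and ERAP1 higher at 0.45. Of 29 further interferon-stimulated genes 21 had a negative difference, with a median of -0.06. Of all genes 58.1% had one, with a median of -0.03. None of the 29 passed without the block. With it CMPK2, a mitochondrial nucleotide kinase whose gene lies beside RSAD2, was called lower at -1.03 (SE 0.29, adjusted p = 0.00965 with the block) and GBP3 higher at 0.76 (SE 0.26, 0.0130). In the other 3 inductions no gene of these lists was called without the block.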

How the data were processed

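RNA of 24 samples was amplified with a NuGEN kit before hybridisation, per the labels' protocols. Per the submitters' processing notes, the authors derived the deposited log2 signals by RMA with Affymetrix Power Tools. Versions and detection calls are not given in those sources. Precision is limited by the 3 arrays of a group.

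Of 54675 probe sets 41097 had exactly 1 symbol in the platform annotation, and the brightest over all 24 arrays stood for each of 19775 genes, with no filter on dim ones. The 38 genes had 63 such probe sets. Tests used limma (version 3.58.1, R 4.3.3; lmFit, contrasts.fit and eBayes). All 24 arrays entered 1 model with a mean for each of the 8 groups, which left 16 residual degrees of freedom beside 4.83 from the prior. A gene was called when its p, adjusted by Benjamini and Hochberg over all genes of a comparison, was under 0.05. Every SE, interval and adjusted p is from this fit unless the block is named. There were 9 comparisons. The fit without the block was tested for the inductions on simulated data that held no pair effects. The blocked fits were not tested in this way.

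Whether same-numbered arrays form pairs was checked by correlating their deviations from the group means across genes. The correlations were 0.581, 0.488 and 0.416 for HCT15 WT and 0.767, 0.618 and 0.310 for HCT15 Y330H, so HCT15 numbers were taken as pairs. A blocked fit with 8 residual degrees of freedom stands beside those inductions. It held terms for the numbers within every version, so its variance came from the HT115 pairs as well. In HT115 WT (0.226, 0.188 and -0.005) and HT115 E314K (0.594, 0.051 and 0.317) the numbers were not taken as pairs, although the blocked fit paired them. For comparisons of untagged arrays the replicate block was another one, an effect of the number shared by all groups. Whether equal numbers of different versions belong together was not checked.

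The genes, their roles and the wider lists were chosen with earlier results of these data known. Values by array are given for every member called in a comparison and for the 2 with the smallest p per role in the HCT15 WT induction, and up to 4 called genes per wider list and comparison, or the smallest p where none was called. Further names, and the markers KRT19, KRT20, CDX1, CDX2, VIL1, LGALS4, CD14 and LYZ, were chosen after their values were seen. Alternatives changed the block, the arrays in the fit, weights, variance prior, filter, scaling and probe sets, and left out arrays. Genes of the lists with no probe set of a single symbol were not analysed here.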

Additional observations from a re-analysis of the deposited data

Results flagged for a closer look

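The difference between the WT and Y330H inductions of HCT15 passed for IFITM1 when the replicate pairs were used, at -0.76 (SE 0.13, adjusted p = 0.0211 in limma with the replicate block). IFITM1 was lower with tetracycline in 3 of 3 pairs of HCT15 WT, and in HCT15 Y330H the difference was 0.12. Without the block its SE was 0.80 and its adjusted p 1.00.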

How the results depend on the processing

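In the HCT15 WT induction 1 member was called. The count was 10 with the replicate block and 9 with array weights (all lower, where 1.72% and 3.69% of all genes were), and 0 with only the arrays compared, without the HT115 WT arrays, without both HCT15 WT arrays numbered 1 and, an alternative chosen after seeing the data, without pair 2. Leaving out single arrays gave 0 to 1. With the replicate block, also chosen after seeing the data, it was 2 without pair 1, 2 without pair 2 and 15 without pair 3 (2.03%, 1.06% and 4.56% of all genes). In the HT115 WT induction, whose numbers were not taken as pairs, the replicate block gave 1 call. It was ISG20 (adjusted p = 0.0140), where 0.753% of all genes were called higher. In the difference of HCT15 WT and Y330H inductions the replicate block gave 1. Without pair 3 of HCT15 WT it gave 8, where 1.5% of all genes were called. Between the untagged HCT15 versions the block shared by all groups gave 1 (OAS1, adjusted p = 0.0242, where 3.2% of all genes were called lower). In that last comparison array weights gave 10 (18.9% of all genes), the brighter genes 1 (12.9%), quantile normalization 1 (6.65%), the mean of probe sets 2 (5.71%), and leaving out single arrays 0 to 1. The difference of WT inductions gave 0 to 1 when arrays were left out. The IFITM1 difference of HCT15 inductions ranged from -1.51 without the Tet Y330H array numbered 2 to a reversed 0.048 without the untagged one of that number. Of 850 alternative values for 41 named results, 796 kept direction and side of the threshold, 21 lost and 32 gained the call, and 1 reversed. For a result that was not called, keeping its side means that it stayed uncalled. TLR3 in the HCT15 WT induction lost its call in 11 of 22 alternatives. The count of 26 between the lines ranged from 22 to 26. Why counts moved was not tested, beyond fewer arrays or genes in the fit. The median of all genes moved by less than 0.1 under each scaling. Low signals, such as IFI44L near 2 to 3, have no detection call here.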

Other observations

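Genes that sense DNA or signal from sensors also differed between the lines. CGAS, the cytosolic DNA sensor, was at 3.09 to 3.6 in the untagged HCT15 arrays and at 8.27, 8.79 and 8.74 in untagged HT115 E314K, a difference of -5.20 (SE 0.14, adjusted p = 4.63e-18 in limma). Its HCT15 values lie near the low end of the arrays and have no detection call, so the size of this difference is uncertain. IFI16, another sensor of DNA, was at 5.04 to 6.27 and at 8.53, 7.14 and 7.24, a difference of -2.02 (SE 0.28, adjusted p = 4.20e-06), and their adaptor STING1 had -0.94 (SE 0.22). IKBKE and TBK1, kinases that activate IRF3, had -1.38 and -0.50. Of the 15 measured adaptors and kinases of sensing 5 were lower and 2 higher in HCT15, where 16.4% and 21.2% of all genes were. EIF2AK2, the kinase that stops translation on double-stranded RNA, and MAVS, on the RNA side, were higher in HCT15 at 0.43 and 0.32.

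Genes of interferon signalling and its targets were called on both sides. Of 11 receptors and kinases 3 were higher and 2 lower in HCT15, where 21.2% and 16.4% of all genes were, with JAK1 among the lower. JAK1 was at 9.24 to 9.79 in HCT15 and at 10.58, 10.46 and 10.44 in HT115 E314K, a difference of -0.94 (SE 0.11). Of 29 further interferon-stimulated genes 11 were lower and 6 higher in HCT15, where 16.4% and 21.2% of all genes were. GBP2 (-2.42), an interferon gamma target, and the chemokine CXCL11 (-1.76) were among the lower, and CMPK2 (1.64), SAMHD1 (1.39) and SP110 (1.23) among the higher. Of 15 further antigen presentation genes 7 were lower and 2 higher, beside the same shares of all genes, with TAPBPL at -1.54, TAP2 at -0.85 and HLA-B at -0.82. Between the untagged HCT15 versions TICAM1 (-0.47), PLSCR1 (-0.56) and TAPBPL (-0.55) were lower in WT than in Y330H.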
